A study of Mus musculus with 6 samples.

Results

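The Rag GTPases and the Ragulator complex were described gene by gene in the proximal end of the mouse incisor. The 9 genes were taken by name: the 4 Rag GTPase genes Rraga, Rragb, Rragc and Rragd, and the 5 Ragulator genes Lamtor1, Lamtor2, Lamtor3, Lamtor4 and Lamtor5. They were 9 of 19060 genes in the table, and all 9 were among the 15826 genes tested. RNA-seq had been run on incisors of 3 control samples, Fgfr1fl/fl, and 3 mutant samples, labelled Gli1-Cre;Fgfr1fl/fl and named Gli1CreER;Fgfr1fl/fl in the study's methods, at an age of 1 month and 1 week after tamoxifen. The control genotype is entered as wild type in its genotype field, while the protocol gives it as Fgfr1fl/fl, so both groups carried the floxed alleles of Fgfr1. The study's methods list control mice among those injected with tamoxifen. The Cre is a tamoxifen-inducible one driven from Gli1, which marks the mesenchymal stem cells of the incisor, so deletion was limited to Gli1-expressing cells and their descendants, while the RNA came from all cells of the dissected tissue. In such bulk samples, fewer cells of a type and less RNA per cell cannot be told apart.

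Rag GTPases work as heterodimers, in which RagA or RagB pairs with RagC or RagD. The Ragulator complex holds them on the surface of the lysosome, and when amino acids are plentiful the heterodimer recruits the kinase complex mTORC1 there, where the small GTPase Rheb can switch it on. Active mTORC1 promotes growth and restrains autophagy, and the Rag GTPases also hold the transcription factors TFEB, TFE3 and MITF at the lysosome, which keeps them from the nucleus.

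Fgfr1, the targeted gene, was at 529, 924 and 434 CPM in the controls and at 148, 318 and 262 CPM in the mutants, where CPM is counts scaled to a common library size after upper-quartile normalization. Its log2 fold change was −1.37 (SE 0.40, adjusted p = 0.0881, edgeR quasi-likelihood test with Benjamini-Hochberg adjustment over all genes tested). Depth moved with genotype: total counts were between 31060222 and 32712448 in the controls and between 5276557 and 11819576 in the mutants, with mutant 1 the shallowest. Genes at a count of 0 made up 2.18% to 2.44% of the table in the controls and 14.5% to 27.3% in the mutants. Where a gene had no counts, its level could still have been as high as that of 3 counts, at most 0.0874 CPM in a control but 0.655 CPM in mutant 1, and such limits cover counting error only. Among markers of the tissue, summed dental mesenchyme markers ranged from 477 to 665 CPM in controls and from 562 to 663 CPM in mutants, with 1 of the 6 genes, Barx1, at 0 in 2 mutants. Summed epithelium and ameloblast markers were lower in every mutant, at 31394 to 69498 CPM against 85170 to 120607 CPM, and summed erythroid markers were higher, at 926 to 2559 CPM against 380 to 823 CPM. Summed endothelial markers were lower in every mutant, at 111 to 115 CPM against 132 to 221 CPM, and the sums for odontoblasts (21255 to 59357 CPM in controls, 20425 to 26062 CPM in mutants), macrophages (79.2 to 231 CPM and 145 to 227 CPM), Schwann cells (12.2 to 27.4 CPM and 9.57 to 53.9 CPM) and skeletal muscle (4.75 to 2183 CPM and 112 to 3654 CPM) overlapped. By the study's threshold 2 of the 5 erythroid markers rose and 1 fell, and 0 genes of the other 7 marker lists passed. Over all genes tested, 10.9% were higher and 8.92% lower by it. No marker of any list was at 0 in all samples. The part of cell makeup in the values that follow was not tested. Depth was addressed only by a fit with control counts thinned to the depth of the mutants, given in the last section. That fit leaves the mutants as shallow as they were.

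The sequences in which the promoters of the 9 genes could be compared are those around CACGTG, a 6-base palindrome at the core of the element bound by TFEB, TFE3 and MITF, since these factors are themselves held at the lysosome by the Rag GTPases. RefSeq promoter sequences of build GRCm38.p6, from 250 bases before to 50 bases after the gene start, matched 8 of the 9 genes, Lamtor3 being left without an entry. CACGTG, which reads the same on both strands, was present in 4 of these 8 promoters and in 7.15% of all 32851 promoters of that length. Stretches of 40 bases follow, 5′ to 3′ on the plus strand, which is the strand of each of these genes, with the motif in capitals.
Rragb, chrX:153139814-153139853: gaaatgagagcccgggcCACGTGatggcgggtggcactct
Rragb, chrX:153139905-153139944: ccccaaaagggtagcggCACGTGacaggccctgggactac
Rragb, chrX:153139938-153139977: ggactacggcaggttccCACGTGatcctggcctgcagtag
Rragc, chr4:123917304-123917343: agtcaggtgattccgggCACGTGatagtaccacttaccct
Lamtor1, chr7:101905752-101905791: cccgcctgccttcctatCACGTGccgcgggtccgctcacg
Lamtor4, chr5:138255345-138255384: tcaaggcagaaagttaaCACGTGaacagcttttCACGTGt

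Rragb held 3 copies, which began at −127, −36 and −3 from the start of the gene in RefSeq. For Rragb, Rragc and Lamtor1 the RefSeq start lies upstream of the GENCODE start given with their values, farthest for Lamtor1. Positions are counted from the RefSeq start. Lamtor4 held 2 copies, at −120 and −104, Rragc held 1 at −112 and Lamtor1 held 1 at −68. The promoters of Rraga, Rragd, Lamtor2 and Lamtor5 did not contain these letters in this window. The match is a description of the sequence and says nothing of whether a factor was bound there in these incisors.

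Levels among the 9 genes were compared per kilobase of the longest protein-coding transcript, since reads accumulate with transcript length. In the controls the genes fell into 3 tiers. The highest held Lamtor1 at 82.0 ± 25.2 CPM per kilobase (SD, n = 3), Lamtor2 at 53.5 ± 16.4, Lamtor4 at 46.4 ± 16.6, Rraga at 42.7 ± 10.5 and Lamtor5 at 42.6 ± 15.04 CPM per kilobase. Rragc at 21.8 ± 3.91 and Lamtor3 at 21.6 ± 5.32 CPM per kilobase made the middle tier, and Rragb at 1.63 ± 0.501 and Rragd at 1.59 ± 0.645 CPM per kilobase the lowest. Within each tier the ranges of neighbours in the order overlapped, and those of Lamtor5 and Rragc and of Lamtor3 and Rragb did not. Among the 13798 protein-coding genes tested, Lamtor1 was above 95.3% and Rraga above 91.0%, whereas Rragb and Rragd were above only 21.9% and 21.5%.

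In the mutants the per-kilobase order kept Lamtor1 first at 97.2 ± 18.6 CPM per kilobase (SD, n = 3), and Lamtor5 moved from the fifth place to the third at 83.1 ± 15.9 CPM per kilobase, behind Lamtor2 at 86.6 ± 45.1. Among neighbours in this order, only Rragc, at 25.4 ± 6.33 CPM per kilobase, and Rragd, at 3.08 ± 3.69, had ranges that did not overlap. Rragb was lowest in the mutants at 0.503 ± 0.687 CPM per kilobase. In both groups, then, RagA was the more abundant transcript of the A and B pair and RagC that of the C and D pair.

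**Figure D1:**
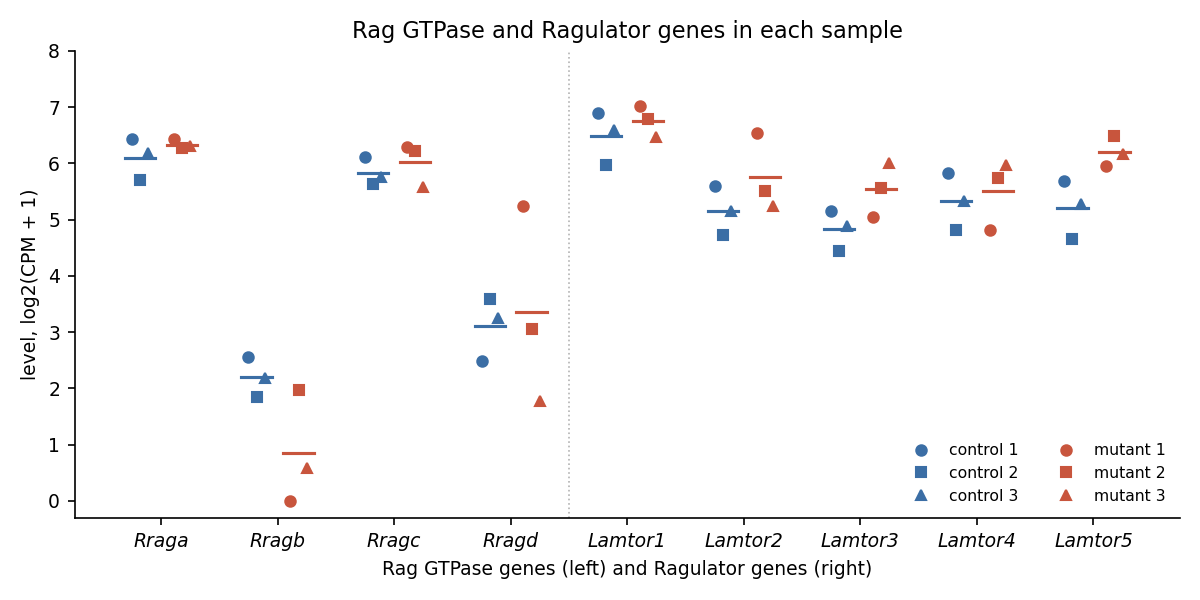
Level of each Rag GTPase and Ragulator gene in each of the 6 samples, as log2(CPM + 1), where points are samples and short lines are means of the log values. The 3 mutants lie above the 3 controls for Lamtor5, from 60.7 to 88.3 CPM against 24.2 to 50.7 CPM, and for the other 8 genes the groups overlap.

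Of the 9 genes, 1 was higher in the mutants by the study's threshold, an unadjusted p under 0.05 with a change over 1.5-fold, and 0 were lower. Over all genes tested, 10.9% were higher and 8.92% lower by that threshold. With edgeR, 0 of the 9 reached an adjusted p under 0.05, against 6.79% of all genes, and the same count of 0 was obtained with limma-voom and with DESeq2. The study's threshold was passed by 3 of the 9 with limma-voom, against 23.8% of all genes in that fit, and by 1 of the 9 with DESeq2, against 21.2%. Mutants and controls were fully separated for 1 of the 9, against 30.4% of all genes. The median log2 fold change was 0.21 over the 4 Rag GTPase genes and 0.69 over the 5 Ragulator genes, beside −0.040 over all genes and −0.11 over protein-coding genes. Protein-coding genes of up to 1000 bases, the class of Lamtor2, Lamtor4 and Lamtor5, had a median of 0.93. All 5 Ragulator genes had a log2 fold change above 0 in this fit. With total counts only, Lamtor1 was at −0.0063 and Lamtor4 at −0.026, where the median of all genes was −0.30. Lamtor4 was also under 0 without control 2 and without mutant 3.

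Rraga (chr4:86575668-86577285, GRCm38, plus strand, 1 exon) encodes RagA, a GTPase that binds the mTORC1 subunit Raptor when loaded with GTP. It was at 85.0, 51.2 and 71.3 CPM in the controls and at 85.1, 76.1 and 77.8 CPM in the mutants. The mutants lay within the upper part of the control range or level with its top, and varied less among themselves, with a coefficient of variation of 6.03% against 24.6%. The log2 fold change was 0.20 (SE 0.25, adjusted p = 0.734, edgeR).

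Rragb (chrX:153139981-153171943, plus strand, 11 exons) encodes RagB, the close paralog of RagA. It was at 4.87, 2.61 and 3.55 CPM in the controls and at 0, 2.90 and 0.504 CPM in the mutants. Mutants 1 and 3 were below every control and mutant 2 was among them. These are small numbers: 167, 95 and 123 counts in the controls, and 0, 34 and 5 counts in the mutants. The fitted log2 fold change was −1.65 (SE 1.35, adjusted p = 0.580, edgeR), a value fitted with a library at 0. Without that library, mutant 1, it was −1.12 (adjusted p = 0.501, edgeR). Without mutant 2 it was −3.67 (adjusted p = 0.136, edgeR), which passed the study's threshold; over all alternatives the adjusted p ran from 0.136 to 0.825.

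The count of Rragb relative to Rraga within each sample does not depend on scaling between samples. Rragb made up 5.42%, 4.85% and 4.75% of the joint counts of the pair in the controls, with 95% Wilson intervals of 4.67% to 6.27%, 3.99% to 5.90% and 3.99% to 5.64%. In mutant 1 it was 0 of 390 counts, which allows a share of up to 0.769%. It was 3.68% (2.64% to 5.09%) in mutant 2 and 0.644% (0.275% to 1.497%) in mutant 3. The share was therefore lower in all 3 mutants than in any control, though the interval of mutant 2 overlaps those of the controls. The log2 ratio of Rraga to Rragb, with 0.5 counts added to each gene, averaged 4.24 ± 0.106 in the controls and 7.14 ± 2.46 in the mutants (SD, n = 3 each). The difference of 2.90 had a two-sided exact permutation p of 0.1, the smallest that 3 against 3 samples can give, and 0.3 after adjustment over the 3 ratios compared. The ratio of mutant 1, 9.61, was set by the 0.5 added to a count of 0. The mutant mean and the difference depend on that choice. Without mutant 1 the difference was 1.67 and without mutant 2 it was 4.13.

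Rragc (chr4:123917446-123936997, plus strand, 7 exons) encodes RagC, which is active in its GDP-bound form. Its level was 67.9, 48.5 and 52.9 CPM in the controls, and 77.0, 73.6 and 47.1 CPM in the mutants. Mutants 1 and 2 were above every control and mutant 3 just under the lowest. This gave a log2 fold change of 0.22 (SE 0.27, adjusted p = 0.737, edgeR).

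Rragd (chr4:32983037-33022180, plus strand, 8 exons) encodes RagD, the paralog of RagC and a known transcriptional target of the TFEB family. It was at 4.57, 11.0 and 8.50 CPM in the controls and at 36.9, 7.34 and 2.42 CPM in the mutants. Mutant 1 was above all other samples, mutant 3 below all, and mutant 2 within the control range. The log2 fold change of 0.94 (SE 0.94, adjusted p = 0.664, edgeR) therefore rested on mutant 1, and without that sample it was −0.73.

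Rragd made up 6.31%, 18.5% and 13.8% of the joint Rragc and Rragd counts in the controls, with Wilson intervals of 5.42% to 7.34%, 17.0% to 20.2% and 12.4% to 15.4%. In the mutants it was 32.4% (28.5% to 36.5%), 9.07% (7.40% to 11.1%) and 4.89% (3.31% to 7.17%). This share differed between samples of the same genotype by more than counting error in both groups. The log2 ratio of Rragc to Rragd differed by −0.0082 between the groups (two-sided exact permutation p = 1, adjusted p = 1).

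**Figure D2:**
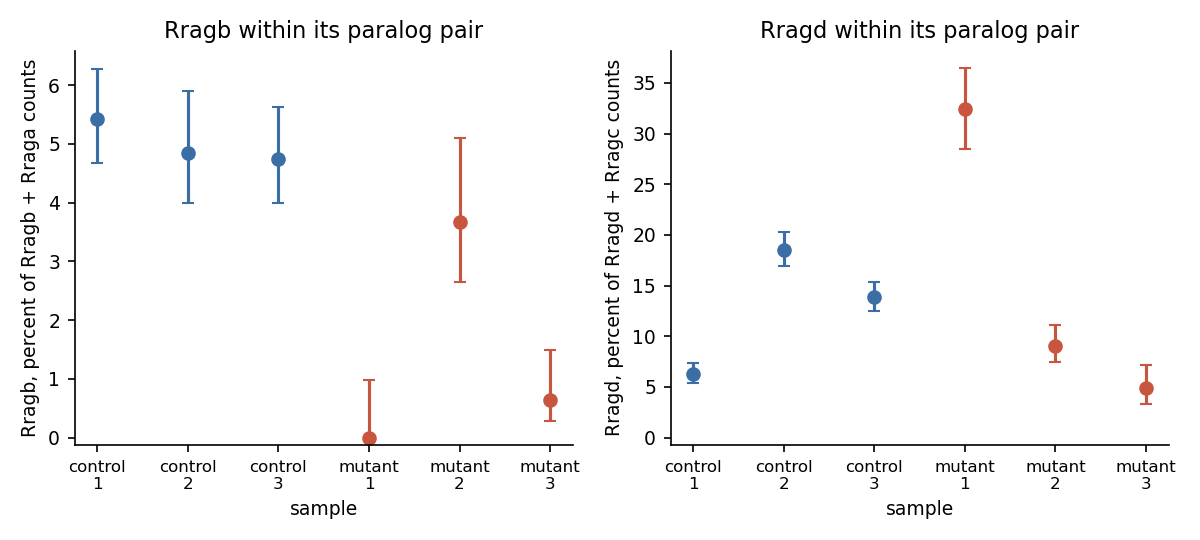
Share of Rragb in the joint counts of Rragb and Rraga, and of Rragd in those of Rragd and Rragc, in percent for each sample; bars are 95% Wilson intervals and cover counting error only. The Rragb share is 4.75% to 5.42% in controls and 0% to 3.68% in mutants, and the Rragd share runs from 4.89% to 32.4% with the groups overlapping.

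Lamtor1 (chr7:101905904-101926675, plus strand, 5 exons) encodes the lipid-anchored subunit that ties Ragulator to the lysosomal membrane and wraps around the others. It was at 118, 61.9 and 95.4 CPM in the controls and at 129, 109 and 87.7 CPM in the mutants. Mutant 1 was above every control and the other two were among them. Its log2 fold change was 0.24 (SE 0.29, adjusted p = 0.728, edgeR).

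Lamtor2 and Lamtor3 encode p14 and MP1, a pair of roadblock-domain proteins that form a dimer and were first known as a scaffold for MAP kinase signalling on late endosomes. Lamtor2 (chr3:88549819-88553074, minus strand, 4 exons) was at 47.2, 25.4 and 34.7 CPM in the controls and at 92.3, 44.4 and 36.8 CPM in the mutants. Mutant 1 was above every control and the others were within the control range. Its log2 fold change was 0.69 (SE 0.41, adjusted p = 0.408, edgeR), and 0.17 without mutant 1.

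Lamtor3 (chr3:137918506-137928900, plus strand, 7 exons) was at 34.5, 20.8 and 28.6 CPM in the controls and at 31.9, 46.2 and 63.6 CPM in the mutants. Here mutants 2 and 3 were above every control and mutant 1 was among them, the reverse of the order in Lamtor2. The log2 fold change was 0.76 (SE 0.35, adjusted p = 0.269, edgeR). Without mutant 1 it was 0.96 (adjusted p = 0.0946), which passed the study's threshold; over all alternatives the adjusted p ran from 0.0946 to 0.956.

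Lamtor4 and Lamtor5 encode the second roadblock dimer of the complex; Lamtor5 is also known as HBXIP. Lamtor4 (chr5:138255482-138259398, plus strand, 4 exons) was at 56.0, 27.0 and 39.2 CPM in the controls and at 27.3, 52.5 and 61.8 CPM in the mutants. Mutant 3 was above every control, mutant 2 was within the control range, and mutant 1 was level with the lowest control. The samples gave a log2 fold change of 0.22 (SE 0.39, adjusted p = 0.833, edgeR).

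Lamtor5 (chr3:107278858-107284082, plus strand, 4 exons) was the gene that rose. It was at 50.7, 24.2 and 37.7 CPM in the controls and at 60.7, 88.3 and 70.6 CPM in the mutants, so that all 3 mutants were above all 3 controls. The mean was 37.6 ± 13.3 CPM in the controls and 73.2 ± 14.0 CPM in the mutants (SD, n = 3 each). The fold change was 1.95, or 0.96 on the log2 scale (SE 0.32, adjusted p = 0.129, edgeR), and the adjusted p ran from 0.0791 to 0.634 over the alternatives. Leaving out mutant 2 gave 0.80, scaling by total counts gave 0.73 and adjusting each sample for length and GC content gave 0.34, none of which passed the study's threshold.

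**Figure D3:**
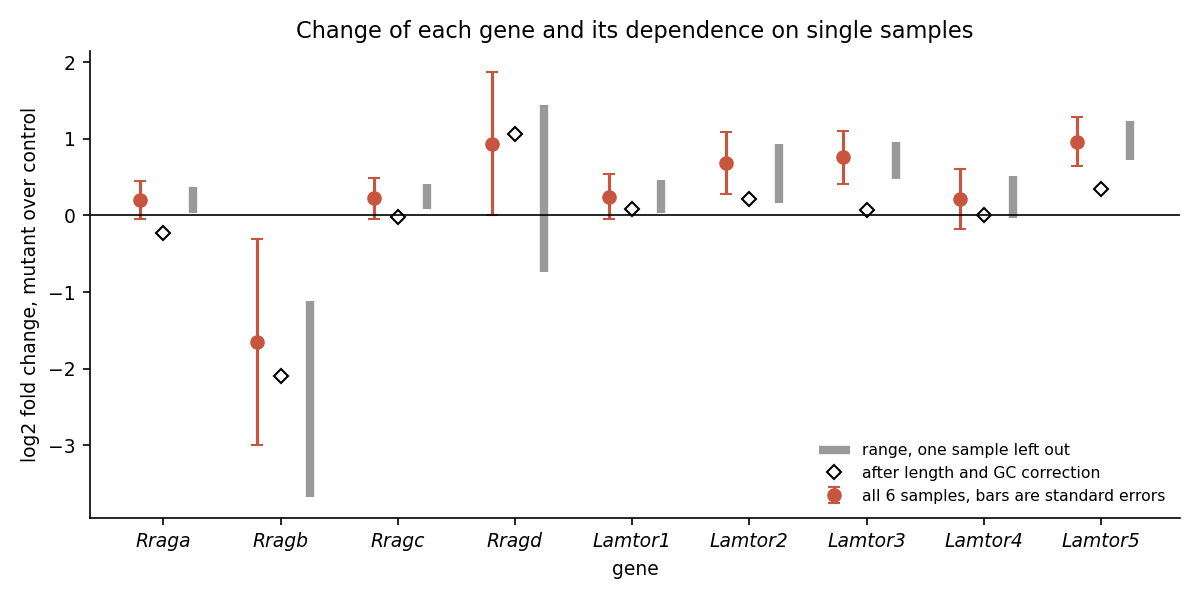
Log2 fold change of mutant over control for each of the 9 genes: filled points use all 6 samples with standard errors, open diamonds follow the length and GC correction, and grey bars span the values with each sample left out in turn. Lamtor5 lies at 0.96 with a range of 0.73 to 1.24, and falls to 0.34 after the correction.

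Control 2 was the lowest control for 8 of the 9 genes, and the highest for Rragd. Its summed Ragulator level was 159 CPM, against 306 and 236 CPM in controls 1 and 3, whereas the mutants were close together at 341, 341 and 320 CPM. Summed Rag GTPases were at 162, 113 and 136 CPM in the controls and at 199, 160 and 128 CPM in the mutants. The ratio of the Ragulator sum to the Rag GTPase sum was 1.89, 1.40 and 1.73 in the controls and 1.71, 2.13 and 2.51 in the mutants. The groups overlapped, and the log2 ratio was higher by 0.33 in the mutants (two-sided exact permutation p = 0.3, adjusted p = 0.45). With each gene taken per kilobase, the ratios were 3.96, 3.12 and 3.64 in the controls and 4.22, 4.61 and 4.98 in the mutants, which did not overlap (log2 difference 0.37, exact permutation p = 0.1, the smallest possible). This ratio was left out of the adjustment over the 3 ratios. Division by length does not remove a length trend that differs between samples. Log2 levels relative to gene means were fitted in each sample on log2 transcript length and GC percent. The length slopes were −0.044, 0.468 and 0.163 in the controls and −0.36, −0.086 and −0.14 in the mutants. Their part in this ratio was not tested.

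The 5 subunits, which join the complex in equal numbers as proteins, took steady shares of the summed Ragulator transcript level per kilobase in the controls. Lamtor1 made up 32.5% to 34.5%, Lamtor2 21.1% to 22.7%, Lamtor4 18.1% to 19.7%, Lamtor5 16.4% to 17.8% and Lamtor3 8.22% to 9.57%. The lower control 2 was thus low for all 5 subunits together. It also had the highest length slope, 0.468 against −0.044 and 0.163 in controls 1 and 3, and the Ragulator transcripts are short. The part of that slope in the low values was not tested. The mutants spread further. Lamtor2 took 36.5% in mutant 1 but 18.5% and 16.5% in mutants 2 and 3, and Lamtor4 took 8.22% in mutant 1 but 16.6% and 21.1% in the others. Lamtor1 was under its control range in every mutant, at 30.5%, 27.1% and 23.5%, and Lamtor5 was over its control range in every mutant, at 18.2%, 27.8% and 24.1%. The shares are parts of a single total, so these shifts are not independent of each other. In CPM, the groups did not overlap for 30.4% of all genes tested. Length and GC trends that differ between samples were not removed from the shares, and their part was not tested. Mutant 1, which had the fewest counts, also had the most uneven mixture of subunits.

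Transcript length moved with the fold change across the whole table, and the Ragulator genes are short. Protein-coding genes of up to 1000 bases, among them Lamtor2 (668 bases), Lamtor4 (877 bases) and Lamtor5 (881 bases), had a median log2 fold change of 0.93, and 41.1% of these 704 genes were higher by the study's threshold. The log2 fold changes of Lamtor2 (0.69) and Lamtor4 (0.22) were under that median, and Lamtor5 (0.96) was close to it. Genes of 1000 to 2000 bases, which include Lamtor1 (1119 bases), Lamtor3 (1295 bases) and Rraga (1618 bases), had a median of 0.18, with quartiles at −0.33 and 0.71. Lamtor1 at 0.24 and Rraga at 0.20 were close to this median and Lamtor3 at 0.76 was just over the upper quartile.

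Longer genes leaned the other way. The median was −0.18 for genes of 2000 to 4000 bases, which include Rragb (2258 bases) and Rragc (2593 bases), and −0.26 for genes over 4000 bases, which include Rragd (5055 bases). Correction of each sample for transcript length and GC content moved the median of the Ragulator genes from 0.69 to 0.088. After it the log2 fold change was 0.22 for Lamtor2, 0.07 for Lamtor3, 0.34 for Lamtor5 and −0.23 for Rraga, whereas Rragb was at −2.10. GC content also moved with genotype: in the same fits the slope per percent of GC was 0.016 to 0.046 in the controls. It was −0.037 to −0.023 in the mutants. The transcript of Lamtor2 had 57.0% GC and that of Lamtor3 46.0%. The correction took length and GC together, so their parts in a change are not separated. Whether the length and GC trends arose in the tissue or in the libraries was not tested.

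**Figure D4:**
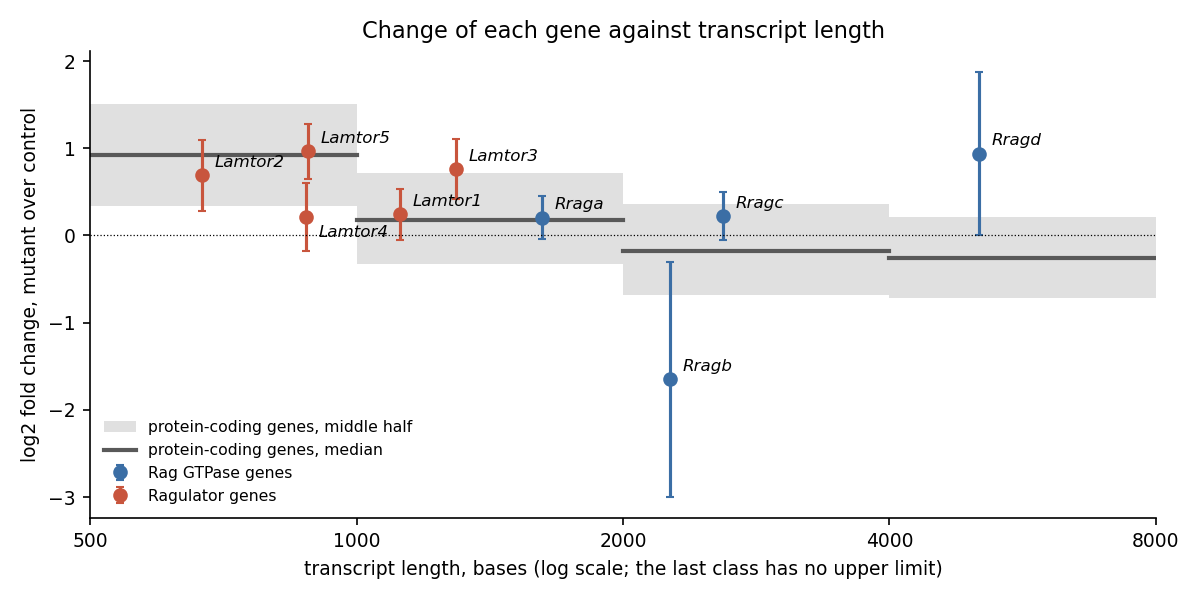
Log2 fold change of mutant over control with its standard error against transcript length on a log axis for the 4 Rag GTPase genes and the 5 Ragulator genes, over the median (dark lines) and the quartiles (grey bands) of protein-coding genes in 4 length classes. The class medians go from 0.93 at up to 1000 bases to −0.26 over 4000 bases, and the Ragulator genes all lie at the short end.

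Reads of some of these genes could also have come from neighbours or copies. No stretch of 75 bases, the read length, was shared between the transcripts of Rraga and Rragb or of Rragc and Rragd, nor between any other gene and Rraga, Rragb, Rragd, Lamtor2 or Lamtor4. Lamtor1 shared 20.7% of its 75-base stretches, mostly with Lrrc51 on the opposite strand, and Rragc shared 5.79% with a gene on the opposite strand. Whether strand was used in the counting is not given in the sources used here, so such reads cannot be told apart. Lamtor5 shared 8.77% with the processed pseudogene Gm15190, whose counts were 0.583% to 0.956% of those of Lamtor5 in the controls and 2.56% to 4.10% in the mutants. Lamtor3 shared 4.21% with Gm5900, whose counts were 0.746% to 2.54% of those of Lamtor3 in the controls and 21.6%, 10.4% and 2.35% in the mutants. The values of Lamtor3 are uncertain to that extent.

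Regulators act upstream of the Rag GTPases. GATOR1 switches RagA and RagB off, KICSTOR places GATOR1 at the lysosome, and folliculin acts on RagC and RagD. Of 10 genes in this list, 0 rose, 2 fell and 8 did not pass the study's threshold, with a median log2 fold change of −0.72 against −0.040 for all genes. By that threshold 10.9% of all genes tested were higher and 8.92% lower. These shares are to be set beside the counts of every list here and below. List medians here and below were not corrected for GC content or for transcript length, with which the fold change moved. The part of length and GC in these medians was not tested. Nprl3, a GATOR1 subunit, fell from 13.2, 16.1 and 13.4 CPM to 1.53, 3.07 and 4.74 CPM, by 2.18 on the log2 scale (SE 0.66, adjusted p = 0.101, edgeR). BC048403, a KICSTOR subunit, fell from 4.11, 4.95 and 4.74 CPM to 0, 0.171 and 0 CPM (adjusted p = 0.0466, edgeR). The 3 mutants were at or under the level of 3 counts for BC048403, so no fold change is given for it. Nprl2, the partner of Nprl3, was at 14.3, 9.56 and 12.6 CPM in the controls and at 6.77, 11.6 and 22.5 CPM in the mutants (adjusted p = 0.916, edgeR); it was named after its values were seen.

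Of 15 genes of GATOR2 and the amino acid sensors, 1 rose, 2 fell and 12 did not pass, with a median of −0.23. Bmt2, which encodes the sensor of S-adenosylmethionine known as SAMTOR, rose by 1.09 on the log2 scale (SE 0.37, adjusted p = 0.142, edgeR). Lars, the leucyl-tRNA synthetase, fell by 0.97 (SE 0.26, adjusted p = 0.0679), and Sh3bp4, a negative regulator of the Rag GTPases, fell by 1.27 (SE 0.37, adjusted p = 0.0891). For Lars the controls were at 50.1, 53.4 and 53.5 CPM and the mutants at 24.4, 23.2 and 32.4 CPM, without overlap.

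Of 10 genes of mTORC1, TSC and Rheb, 1 rose, 0 fell and 9 did not pass, with a median of −0.38. Rheb, the GTPase that activates mTORC1 at the lysosome, was at 71.9, 36.8 and 57.4 CPM in the controls and at 164, 93.0 and 99.7 CPM in the mutants. Its log2 fold change was 1.10 (SE 0.33, adjusted p = 0.09998, edgeR). Of the 4 MiT/TFE factors, 1 rose and 3 did not pass. Tfec, the member of the family best known from macrophages, rose from 0.320, 0.467 and 0.347 CPM to 9.38, 10.4 and 1.51 CPM (log2 fold change 4.21, SE 1.11, adjusted p = 0.0642, edgeR). Summed macrophage markers, as given above, overlapped between the groups. Their log2 fold changes were 0.46 for C1qa, 0.34 for Cd68, −0.086 for Adgre1 and −0.81 for Csf1r. The part of cell makeup in the change of Tfec was not tested. Tfeb, named for its tie to the Rag GTPases, at 14.1, 15.1 and 14.6 CPM in the controls and 8.29, 14.6 and 8.87 CPM in the mutants, did not pass (adjusted p = 0.676, edgeR).

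Ragulator also binds BORC, a complex that positions lysosomes, and the V-ATPase, the proton pump that acidifies them. Of 8 BORC genes, 1 rose, 0 fell and 7 did not pass, with a median of −0.19. Bloc1s1, a subunit shared with the related complex BLOC-1, was at 77.3, 36.1 and 55.1 CPM in the controls and at 125, 151 and 133 CPM in the mutants. It rose by 1.28 on the log2 scale (SE 0.30, adjusted p = 0.0464, edgeR), and at 613 bases it belongs to the shortest class of transcripts.

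Of 16 ubiquitous V-ATPase subunits, 4 rose, 4 fell and 8 did not pass, with a median of 0.035. Over all genes tested, 10.9% were higher and 8.92% lower. Atp6v0e, a small subunit of the membrane sector, rose by 0.97 (SE 0.29, adjusted p = 0.0987, edgeR), and Atp6ap2, an accessory subunit, rose by 0.92 (SE 0.31, adjusted p = 0.131). Atp6v1b2, a subunit of the catalytic sector, fell by 0.90 (SE 0.28, adjusted p = 0.113), and Atp6v0d1, which links the sectors, fell by 0.70 (SE 0.23, adjusted p = 0.135).

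**Figure D5:**
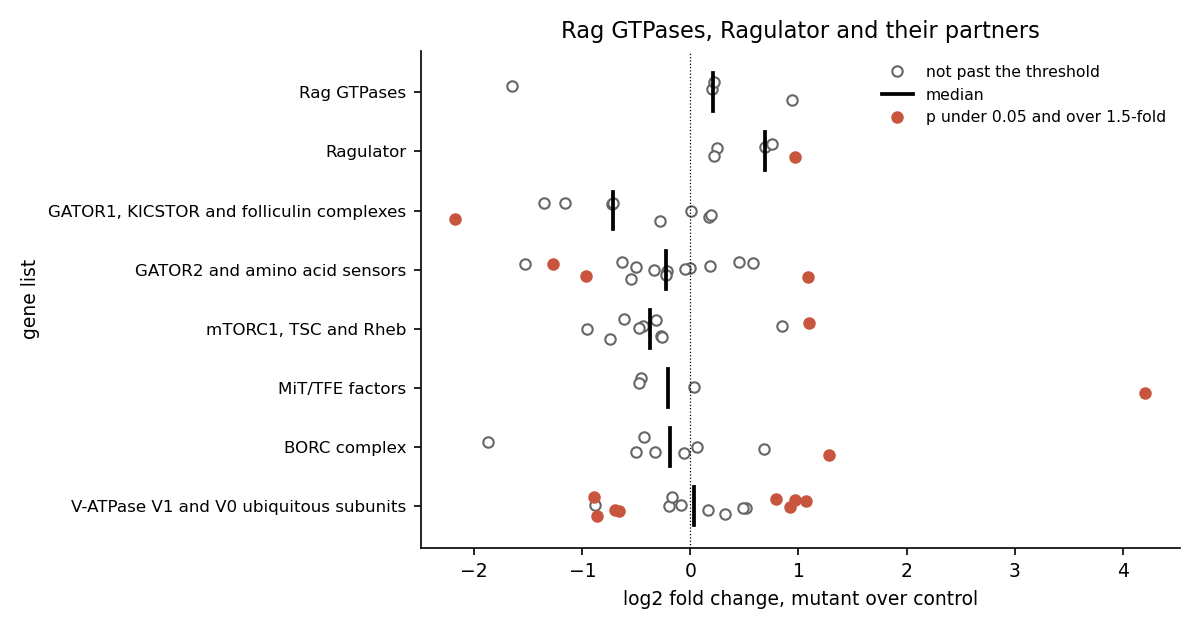
Log2 fold change of mutant over control for the genes of the Rag GTPases, Ragulator and 6 lists of partners, leaving out BC048403, whose mutants were at or under the level of 3 counts, with filled points past the study's threshold and black lines at the medians of all tested genes of a list, BC048403 included. The median is highest for Ragulator at 0.69 and lowest for the GATOR1, KICSTOR and folliculin list at −0.72, and called genes of the V-ATPase lie on both sides. These medians are not corrected for transcript length or GC content. After that correction the Ragulator median was 0.088, and no corrected median is given for the partner lists.

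Among 9699 genes with a mean of at least 10 CPM, those whose log2(CPM + 1) followed the mean of the 5 Ragulator genes most closely over the 6 samples were Fis1, a mitochondrial fission factor (Pearson's r = 0.999), the processed pseudogene Gm5905 (0.997), Med28, a Mediator subunit (0.995), Kctd14 (0.992) and the ribosomal protein gene Rpl5 (0.992). Fis1, for example, was at 168, 78.3 and 125 CPM in the controls and at 170, 200 and 188 CPM in the mutants, low in control 2 as the Ragulator genes were. For the mean of the 4 Rag GTPase genes they were Gtf2e1 (0.994), Fndc10 (0.991), Neu1, the lysosomal sialidase (0.990), Zfp157 (0.990) and Tmem216 (0.988), which were all lowest in mutant 3. With 6 samples and so many genes, 192 genes had an r over 0.95 with the Ragulator mean and 75 with the Rag GTPase mean, and the points share depth and the length trend. The values are a description only.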

How the data were processed

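RNA of 3 control and 3 mutant proximal incisors was sequenced by the study, with TopHat2 2.0.8 and build mm10 in the submitters' processing notes and quantification in Partek Flow per the methods. The deposited table holds estimated counts per gene, not normalized, which were rounded here. A deposited table of the authors' own comparison (p-values, ratios, fold changes and group means) was not used. The labels number the samples without naming animals, so p-values measure only the spread between these samples.

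Counts were tested with edgeR 4.0.16 (R 4.3.3; glmQLFit, glmQLFTest, two-sided, genotype as the only term, upper-quartile scaling, filterByExpr with a minimum count of 10), and p-values were adjusted by Benjamini-Hochberg over the 15826 genes tested. The script was tested on simulated data. limma 3.58.1, DESeq2 1.42.0, TMM scaling, total counts, other filters, thinned control counts, a length and GC correction, a replicate block and the omission of each sample served as alternatives. Ratios were compared by exact permutation tests. Transcript lengths were read from the GENCODE M21 annotation (GRCm38); of the gene symbols, 18637 were found there as such, 195 through a synonym, and 228 were not found.

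The genes and lists were chosen with earlier results of these data known. Named were all 9 genes, in each list up to 2 genes a direction with the smallest p past the study's threshold, Fgfr1, and the 5 genes most like each complex's mean. Castor1 and Castor2 were listed under older symbols and renamed through RefSeq synonyms. Total counts between 5276557 and 32712448 set the precision.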

Additional observations from a re-analysis of the deposited data

How the results depend on the processing

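None of the 9 genes had an adjusted p under 0.05 in any of the 15 alternatives. The number past the study's threshold, 1 with all samples, was 2 with control counts thinned to the depth of the mutants (Lamtor5 and Lamtor3, against 18.4% of all genes in that fit), 3 with limma-voom (Rragb also, against 23.8%), 0 with total counts only (22.7%) and 0 after the length and GC correction (16.1%), and 1 to 2 with each sample left out, the 2 being Lamtor5 and Lamtor3 without mutant 1 (26.8%). With all samples it was 19.8% of all genes, and with each sample left out it was 12.9% to 27.7%. Without mutant 2 the 1 gene past the threshold was Rragb and not Lamtor5. Lamtor5 was past it in 12 of 15 alternatives and above 0 in 15, with adjusted p from 0.0791 to 0.634. Total counts only moved the median log2 fold change of all genes from −0.040 to −0.30, and gave −0.053 for Rraga, −0.030 for Rragc, −0.0063 for Lamtor1 and −0.026 for Lamtor4, each above that median. The length and GC correction gave −0.23 for Rraga, −0.026 for Rragc and 0.088 for the Ragulator median, and limma-voom gave −0.18 for Rragd. With each sample left out, Rragd ran from −0.73 to 1.44, Lamtor4 from −0.036 to 0.51 and the log2 ratio of Rragc to Rragd from −0.70 to 0.90. The cause of these changes was not tested. Samples with the same number did not deviate together (r = 0.0472, 0.00937 and 0.0548). The numbers are those of the labels, which name no pairs, so neither this r nor a replicate block can tell whether samples were paired. With such a block 1 gene was past the threshold, against 17.3% of all genes in that fit. It was Lamtor5 at 1.01 (adjusted p = 0.183, edgeR), while Rragd was at 0.056. Over all genes, the number at an adjusted p under 0.05 was 1074, and ran from 76 to 606 with each sample left out, 377 with thinned controls, 254 after the length and GC correction, 229 with no filter on low counts, 370 with a mean of at least 50 counts, 508 with the replicate block, and 1609 with DESeq2. Depth limits Rragb and Rragd most, at 0 to 169 counts in a mutant sample.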
